A study of Mus musculus with 24 samples.

Results

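The integrated stress response and amino acid genes described here are 44 protein-coding genes, taken by name from a list of the stress response's kinases, transcription factors, target enzymes, transporters and tRNA synthetases. All 44 were found in the deposited table of 20351 genes, with Mars1 under its older symbol Mars, and 43 passed the filter on low counts. The remaining member, Cbs, which makes cystathionine from homocysteine and serine, was too low to test, with group means of 0.122, 0.116, 0.133 and 0.0871 CPM (counts scaled to a common library size) in stretched knockdown, non-stretched knockdown, stretched control and non-stretched control cells. The study sequenced poly(A) RNA of HL-1 cells, a contracting line derived from mouse atrial cardiomyocytes, to ask, per the series title, what part MuRF1 plays in the response to cyclic stretch. MuRF1 is a ubiquitin ligase of striated muscle encoded by Trim63.

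The 24 libraries form 4 groups of 6. Stretched knockdown cells carried an adenovirus with a hairpin RNA against MuRF1 and were stretched by 15% at 1 Hz for 60 min, and non-stretched knockdown cells carried the same virus and were held still. Stretched control cells and non-stretched control cells carried an adenovirus with a scrambled hairpin instead, so no group was free of virus. Virus was given at 30 infectious units per cell 48 h before the stretch, and the cells were moved from serum-containing to serum-free medium. The knockdown was transient, in a single cell line with 1 hairpin. The labels describe the stretch as uniaxial in one place and as biaxial in another, and do not say whether replicates were separate cultures. The p-values therefore measure the spread between these libraries, which may be technical. The library codes hold a number that differs between the groups and is constant within each, so anything it stands for and the group cannot be told apart.

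In the integrated stress response, kinases that sense haem shortage, misfolded protein in the endoplasmic reticulum, double-stranded RNA or uncharged tRNA phosphorylate the translation initiation factor eIF2. General protein synthesis slows, while the mRNA of the transcription factor ATF4 is translated more because of short upstream reading frames. ATF4 pairs with C/EBP-type factors on composite sites called C/EBP-ATF response elements and drives genes for amino acid synthesis, amino acid uptake, tRNA charging and feedback control. In heart muscle the response is known from mitochondrial and nutrient stress, where it is accompanied by the secreted factors GDF15 and FGF21.

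The core of that composite site, TGATGNAA on either strand (TTNCATCA when read on the gene's strand from the opposite side), was searched in RefSeq promoter windows on GRCm38.p6, which run from 250 bases before to 50 bases after each gene's start. Windows were found for 36 of the 44 members, and the 8 without one were Cars, Cth, Lars, Nars, Ppp1r15b, Slc7a3, Slc7a5 and Wars. The core stood in the windows of 13 members, 36.1%, against 4.51% of all 27025 genes with a window. Of the 10541 tested genes with a window, 3.00% held it. The list names known targets of this response, so a higher share among members was likely beforehand and is no test. Counted per window, the shares were 31.7% of 41 member windows, 3.97% of all 32851 and 2.50% of the 13407 windows of tested genes. The 10 of these 13 members whose level changed with the knockdown without stretch are shown, because they include genes that rose and genes that fell. The capitals mark the core in 30 bases read 5′ to 3′ along the gene.
Slc7a11, outer site: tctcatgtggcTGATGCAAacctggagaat
Slc7a11, inner site: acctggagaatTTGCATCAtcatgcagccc
Asns: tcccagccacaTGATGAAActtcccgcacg
Trib3: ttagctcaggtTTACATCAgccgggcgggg
Chac1: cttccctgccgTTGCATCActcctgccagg
Tars: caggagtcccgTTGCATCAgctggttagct
Iars: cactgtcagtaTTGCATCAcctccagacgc
Fgf21: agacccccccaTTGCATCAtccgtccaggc
Nupr1: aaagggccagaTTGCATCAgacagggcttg
Pycr1: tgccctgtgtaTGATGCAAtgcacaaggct
Gars: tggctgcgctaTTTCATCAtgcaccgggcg

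The fragments of the genes that rose lie at chr3:50443661-50443690 and chr3:50443642-50443671 (Slc7a11, minus strand), chr6:7693214-7693243 (Asns, minus strand), chr2:152344028-152344057 (Trib3, minus strand), chr2:119351038-119351067 (Chac1, plus strand), chr15:11399655-11399684 (Tars, minus strand) and chr13:49682126-49682155 (Iars, plus strand). Those of the genes that fell lie at chr7:45615611-45615640 (Fgf21, minus strand), chr7:126625562-126625591 (Nupr1, minus strand), chr11:120643833-120643862 (Pycr1, minus strand) and chr6:55037960-55037989 (Gars, plus strand). The Slc7a11 cores begin at -66 and -47 relative to the start, and their fragments overlap. Aars, Vldlr and Yars also held the core. Of the 12 tRNA synthetase members, 8 had a window and 5 of these held the core, against 0 of 5 other cytosolic synthetases with a window and 0 of 14 mitochondrial synthetases. Among 15 further ATF4-linked genes with a window, 5 held it. A match in these letters is a description of the sequence and not of binding.

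Libraries held 23.6 to 54.8 M estimated counts. Stretched control replicate 5 was the shallowest, with the others at 37.7 M or more, and stood apart on the second principal component (10.2% of the variance) at 54.7 against -14.9 to 13.2. Its mitochondrially encoded transcripts took 1.45% of counts against 2.49% to 3.67% in the others. Trim63 averaged 55.7 CPM in knockdown and 640 CPM in control cells without stretch, 91.3% lower, and 68.5 and 781 CPM with stretch, 91.2% lower (two-sided exact permutation p = 0.00216 each, the smallest that 924 divisions allow). Of 10 cardiomyocyte markers, all in the table and 1 averaging under 1 CPM over all libraries, 8 fell and 1 rose in knockdown cells in both stretch states. Their summed level was 1043 to 1080 CPM in stretched knockdown and 911 to 998 CPM in non-stretched knockdown libraries, against 1833 to 2406 CPM in stretched control and 2011 to 2308 CPM in non-stretched control libraries. Of 7 fibroblast markers 2 averaged under 1 CPM and 5 of the 6 tested fell in knockdown cells, with sums of 95.6 to 101 and 79.9 to 97.4 CPM in stretched and non-stretched knockdown cells against 216 to 243 and 244 to 250.1 CPM in stretched and non-stretched control cells. Endothelial and macrophage markers summed to no more than 6.82 and 4.03 CPM in any library. Of 3 macrophage markers tested, 2 (Cd68 and Itgam) rose with knockdown without stretch and with stretch of control cells, and Cd68 also rose with knockdown with stretch and with stretch of knockdown cells. Stretch raised 4 of the 10 cardiomyocyte markers in knockdown cells and 1 in control cells, and lowered 1 fibroblast marker in control cells. Of all genes tested, 5.32% and 2.55% were called higher with stretch of knockdown and control cells, and 3.39% lower in control cells. With knockdown, 28% were called higher and 29.7% lower without stretch, and 25.1% and 26.9% with stretch. In bulk libraries of a single cell line, fewer cells that express a marker and less of its RNA per cell cannot be told apart. The part of these marker differences in the results was not tested.

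Knockdown changed more of the members than stretch did, and the same held for all genes tested. Among all genes, 8325 and 7494 were called for knockdown without and with stretch, against 857 and 1287 for stretch of control and knockdown cells. In knockdown cells without stretch, 27 of 43 members were higher and 7 were lower than in control cells by edgeR's quasi-likelihood test (Benjamini-Hochberg adjusted p under 0.05 over all genes). Of all 14411 genes tested, 28% were called higher and 29.7% lower in that comparison. The largest differences among the members were a rise of the cystine transporter Slc7a11 and of the secreted factor Gdf15 and a fall of the hormone Fgf21. The median log2 fold change was 0.12 over the members and 0.01 over all genes. Under 7 settings other than leaving out a library, the median over the members was 0.12 to 0.16. The members that did not pass were Aars, Aldh18a1, Atf5, Eif2ak4, Nars, Slc7a3, Slc7a5, Vldlr and Yars.

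With stretch, 17 members were higher and 7 lower in knockdown than in control cells, against 25.1% of all genes called higher and 26.9% called lower. The median was 0.05 over the members and 0.00 over all genes. The 2 knockdown comparisons share no library. In both of them 16 members were higher, namely Asns, Cebpb, Cebpg, Cth, Eif2ak1, Eif2ak3, Eprs, Gdf15, Mars1, Ppp1r15a, Sars, Sesn2, Shmt2, Slc7a11, Trib3 and Wars. In both, 7 were lower: Cars, Ddit4, Fgf21, Gars, Nupr1, Ppp1r15b and Pycr1. Of all genes tested, 21.3% were called higher in both comparisons and 24.7% lower in both. Another 11 members passed as higher without stretch and did not pass with stretch, as did 6.76% of all genes. Eif2ak4 passed as higher with stretch alone, as did 3.82% of all genes. A difference of more than 2-fold was reached by Slc7a11 alone. Fgf21 with stretch was close to it, at a log2 fold change of -0.98, and was past it without stretched knockdown replicate 2 (-1.02) or without stretched control replicate 4 (-1.02).

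**Figure D1:**
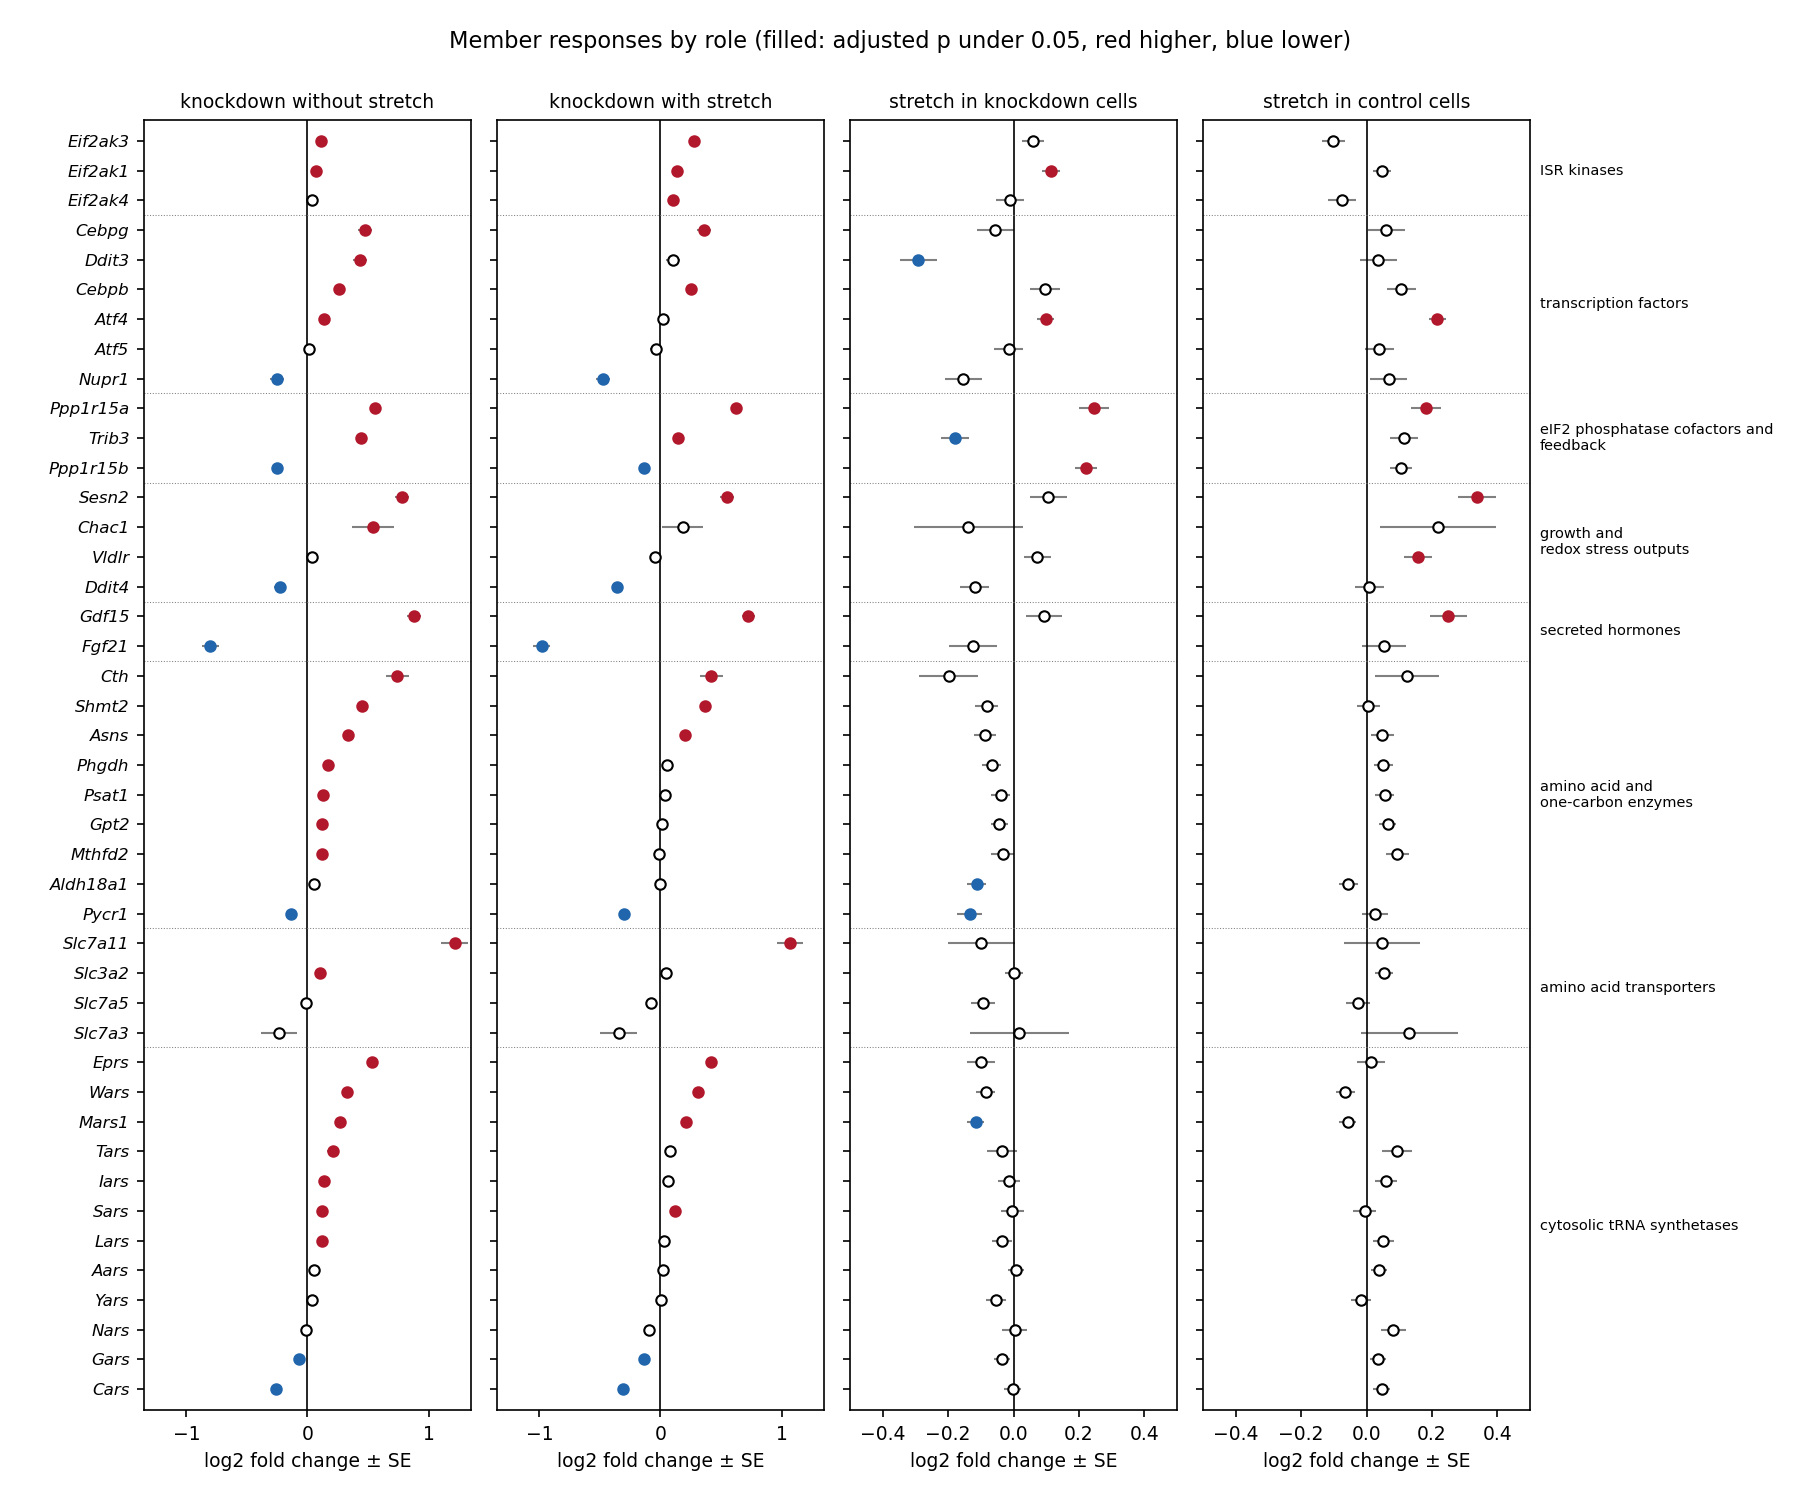
Log2 fold change ± SE (x axes) of the 43 tested members (y axis, ordered by role) for knockdown against control without and with stretch, and for stretched against non-stretched knockdown and control cells. Filled points passed an adjusted p of 0.05, red for higher and blue for lower: 27 and 7 in the first panel, 17 and 7 in the second, 4 and 5 in the third, and 5 and 0 in the fourth, and the stretch panels span a narrower axis.

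Stretch of control cells raised 5 members and lowered none. They were Atf4, the growth and redox regulator Sesn2, Gdf15, the eIF2 phosphatase cofactor Ppp1r15a and the lipoprotein receptor Vldlr. Of all genes tested, 2.55% were called higher and 3.39% lower. This comparison shares the non-stretched control libraries with the knockdown comparison without stretch. Among the 43 members 35 had a positive fold change, with a median of 0.05 over the members and -0.01 over all genes. Sesn2 was the only member that differed by more than 25% in either stretch comparison. That rested on stretched control replicate 5, without which its log2 fold change was 0.27, under 25%. Without this library the count of members called was 11, adding Ppp1r15b, Psat1, Mthfd2, Nars, Tars and Iars. Without non-stretched control replicate 5 it was 3, since Ppp1r15a (adjusted p = 0.0560) and Vldlr did not pass.

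In knockdown cells stretch raised 4 members, Atf4, Ppp1r15a, Ppp1r15b and the haem-regulated kinase Eif2ak1, where 5.32% of all genes were called higher. It lowered 5, namely Ddit3, Trib3, Mars1, Aldh18a1 and Pycr1, where 3.61% of all genes were called lower. Here 13 of 43 members had a positive fold change, and the median was -0.04 over the members and -0.01 over all genes. Atf4 and Ppp1r15a were the members called in both stretch comparisons. The count of 9 was 14 without stretched control replicate 5, since Nupr1, Ddit4, Asns, Slc7a5 and Wars were then also called lower. That library is in neither group of this comparison and enters through the spread that the 4 groups share.

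Levels are given below as the lowest, median and highest CPM of the 6 libraries of a group, after TMM scaling, a correction for library composition. The TMM factors were 1.02 to 1.06 in knockdown libraries and 0.937 to 0.973 in control libraries, except 1.04 in stretched control replicate 5. Small differences between knockdown and control cells thus depend on this scaling. CPM is not divided by transcript length and serves to compare groups, not genes.

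The 3 kinases of eIF2 in the list differed little between groups, by no more than 20.8%. Eif2ak3 encodes PERK, the kinase that senses unfolded protein in the endoplasmic reticulum. It stood at 60.7, 63.7 and 66.9 CPM in stretched and 59.3, 61.1 and 63.8 CPM in non-stretched knockdown cells, against 49.0, 52.3 and 57.6 and 54.7, 56.8 and 58.5 CPM in stretched and non-stretched control cells. Every knockdown library was above every control library in the same stretch state. The log2 fold change was 0.11 (SE 0.0337, adjusted p = 0.00590) without stretch and 0.27 (SE 0.0339, adjusted p = 1.14e-07) with stretch. Eif2ak1 encodes HRI, which is held inactive by haem. Its levels were 57.3, 60.0 and 64.7 CPM and 54.2, 55.6 and 57.7 CPM in stretched and non-stretched knockdown cells, and 53.8, 54.8 and 57.1 and 52.0, 53.1 and 55.4 CPM in stretched and non-stretched control cells. The stretched knockdown libraries had the highest median and were separated from the stretched control libraries, by 0.13 (SE 0.0281, adjusted p = 0.000224). Without stretch the groups overlapped and the difference was 0.07 (SE 0.0281, adjusted p = 0.0434), and stretch of knockdown cells gave 0.11 (SE 0.0280, adjusted p = 0.00946).

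Eif2ak4 encodes GCN2, which binds uncharged tRNA. It had 30.8, 34.4 and 36.4 CPM in stretched and 30.2, 34.8 and 35.4 CPM in non-stretched knockdown cells, and 29.7, 31.4 and 34.0 and 31.7, 33.2 and 35.0 CPM in stretched and non-stretched control cells. All 4 groups overlapped. The difference passed with stretch alone (0.10 (SE 0.0430, adjusted p = 0.0454), against 0.04 (SE 0.0427, adjusted p = 0.450) without stretch), and it did not pass with the authors' factors (adjusted p = 0.0584). Leaving out any of 14 libraries also ended that call, with adjusted p of 0.0503 to 0.128. These were stretched knockdown replicates 2, 3, 5 and 6, stretched control replicates 1, 2, 3, 4 and 6, non-stretched knockdown replicate 1 and non-stretched control replicates 1, 2, 5 and 6. The call of Eif2ak1 without stretch was lost without any of 11 libraries, with adjusted p of 0.0508 to 0.107. Those were stretched knockdown replicate 5, stretched control replicate 4, non-stretched knockdown replicates 1, 2, 5 and 6 and non-stretched control replicates 1, 2, 3, 5 and 6. Its log2 fold change there was 0.10 with no filter and 0.10 without non-stretched knockdown replicate 4. Eif2ak1 also shares 487 exon bases with Aimp2 and 172 with Ankrd61 on the opposite strand, and the use of strand in counting is not stated.

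Among the transcription factors, Atf4 had the smallest p of the members for stretch of control cells and ranked 11 by p among all genes there. The gene lies at chr15:80255184-80257541 on the plus strand of GRCm38 (GENCODE vM21). It was measured at 613, 624 and 650.3 CPM in stretched and 556, 589 and 614 CPM in non-stretched knockdown cells, and at 588, 626 and 634 and 526, 532 and 547 CPM in stretched and non-stretched control cells. Non-stretched control libraries were below all libraries of the other 3 groups. The log2 fold change with stretch was 0.22 (SE 0.0250, adjusted p = 4.71e-06) in control cells, where the groups were separate, and 0.10 (SE 0.0250, adjusted p = 0.0129) in knockdown cells, where they met. Without stretch Atf4 was higher in knockdown cells by 0.14 (SE 0.0250, adjusted p = 4.03e-05). With stretch the difference was 0.02 (SE 0.0250, adjusted p = 0.601).

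Ddit3 encodes CHOP, a factor of prolonged endoplasmic reticulum stress that promotes cell death. Its levels were 45.0, 46.1 and 53.1 CPM in stretched and 55.2, 57.2 and 63.4 CPM in non-stretched knockdown cells. In stretched and non-stretched control cells they were 38.7, 45.0 and 50.7 and 39.9, 44.2 and 46.1 CPM. Non-stretched knockdown libraries were the highest and overlapped with no other group. Ddit3 was thus higher with knockdown when the cells were at rest, by 0.43 (SE 0.0563, adjusted p = 2.11e-07), and fell with stretch in knockdown cells, at -0.29 (SE 0.0559, adjusted p = 0.00110) on the log2 scale. The remaining differences did not pass, at 0.11 (SE 0.0567, adjusted p = 0.123) for knockdown with stretch and 0.04 (SE 0.0569, adjusted p = 0.775) for stretch of control cells. Knockdown with stretch did pass with a block for the replicate number (adjusted p = 0.0355) and without stretched control replicate 2 (0.0277). Exons of Ddit3 and Mars1 share 68 bases on opposite strands, and the annotation holds 2 genes named Ddit3 where the deposited table has 1 row.

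Atf5, a relative of ATF4 linked to mitochondrial stress, passed in no comparison. Its levels were 488, 507 and 551 CPM and 489, 507 and 565 CPM in stretched and non-stretched knockdown cells, and 504, 518 and 558 and 445, 520.5 and 548 CPM in stretched and non-stretched control cells, so that all 4 groups overlapped. Cebpg and Cebpb, whose products can pair with ATF4, were higher with knockdown in both stretch states. Cebpg rose by 0.48 (SE 0.0557, adjusted p = 3.74e-08) without and 0.36 (SE 0.0557, adjusted p = 4.23e-06) with stretch, and Cebpb by 0.26 (SE 0.0450, adjusted p = 1.32e-05) and 0.25 (SE 0.0450, adjusted p = 2.71e-05). Cebpb shares 312 exon bases with Tmem189 on the opposite strand. Nupr1, a small stress-induced chromatin protein, fell with knockdown in both stretch states, with log2 fold changes of -0.25 (SE 0.0560, adjusted p = 0.000388) without and -0.47 (SE 0.0563, adjusted p = 6.3e-08) with stretch.

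**Figure D2:**
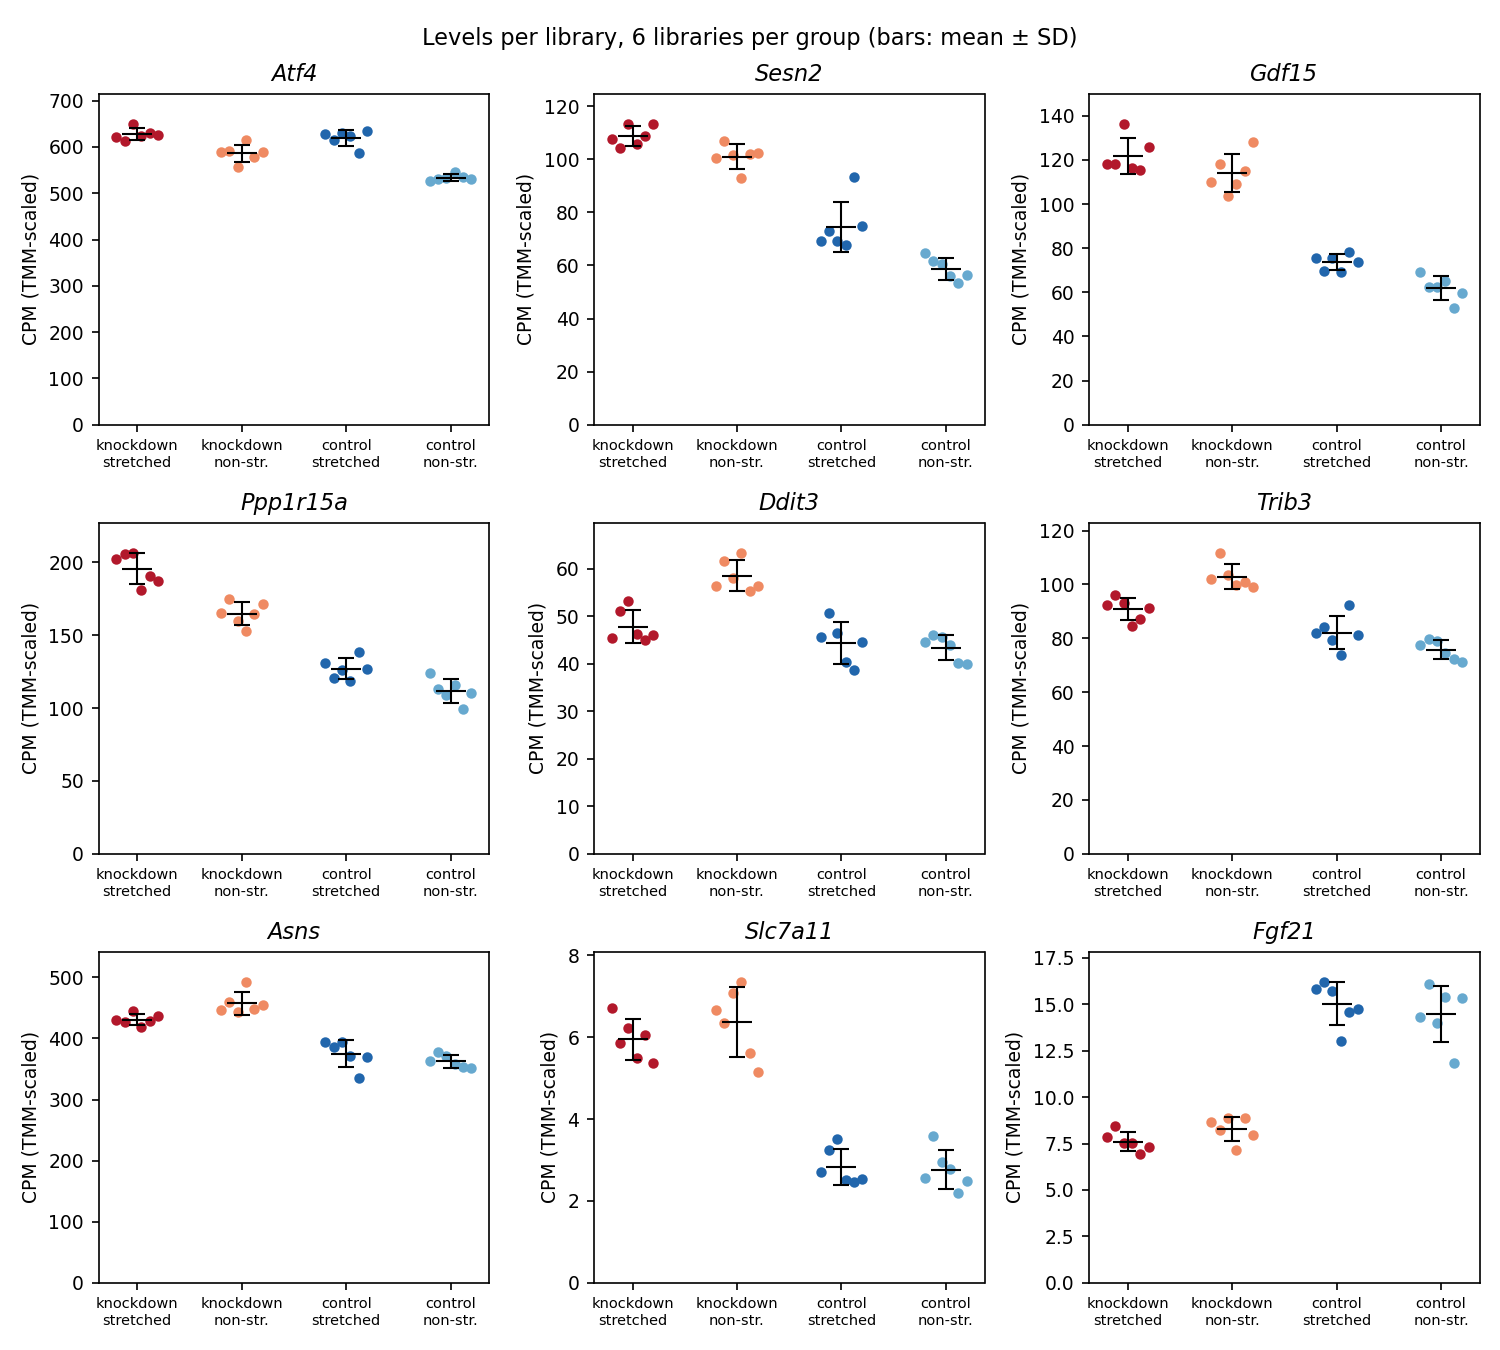
CPM after TMM scaling (y axes, from 0) of 9 members in each library (points) of stretched knockdown, non-stretched knockdown, stretched control and non-stretched control cells (x axes), with the mean and SD of 6 libraries as bars. Gdf15, Sesn2, Ppp1r15a, Asns and Slc7a11 were higher and Fgf21 was lower in knockdown libraries, with no overlap with control libraries of the same stretch state, while Ddit3 and Trib3 were highest in non-stretched knockdown cells.

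The eIF2 phosphatase cofactors Ppp1r15a and Ppp1r15b moved in opposite directions with knockdown. Ppp1r15a encodes GADD34, the inducible cofactor that directs protein phosphatase 1 to eIF2, and Ppp1r15b its constitutive counterpart CReP. Ppp1r15a was at 181, 196 and 207 CPM in stretched and 153, 165 and 175 CPM in non-stretched knockdown cells, and at 119, 126 and 138 and 99.3, 111 and 124 CPM in stretched and non-stretched control cells. Knockdown libraries were above control libraries throughout. It rose with knockdown by 0.56 (SE 0.0462, adjusted p = 3.91e-11) without and 0.63 (SE 0.0461, adjusted p = 4.73e-12) with stretch, and with stretch by 0.25 (SE 0.0457, adjusted p = 0.000727) in knockdown and 0.18 (SE 0.0463, adjusted p = 0.0190) in control cells. Its call in control cells was lost without non-stretched control replicate 5 and, when the fit held the control groups alone, at an adjusted p of 0.0649.

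Ppp1r15b stood at 176, 181 and 189 CPM and 140.3, 157 and 166 CPM in stretched and non-stretched knockdown cells, and at 195, 198 and 211 and 176, 187 and 192 CPM in stretched and non-stretched control cells. No knockdown library reached a control library of the same stretch state. It fell with knockdown, with log2 fold changes of -0.25 (SE 0.0334, adjusted p = 2.3e-07) without and -0.14 (SE 0.0333, adjusted p = 0.000943) with stretch. Stretch raised it in knockdown cells by 0.22 (SE 0.0334, adjusted p = 7.08e-05), and in control cells the groups were also separate while the test missed the threshold (0.10 (SE 0.0333, adjusted p = 0.0593)). The difference in control cells passed under 6 of 31 other settings, among them DESeq2 (adjusted p = 0.0324).

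Trib3 encodes a pseudokinase that is induced by ATF4 and CHOP and restrains them. Its levels were 84.6, 91.8 and 96.1 CPM in stretched and 99.0, 102 and 112 CPM in non-stretched knockdown cells. Control libraries held 73.8, 81.6 and 92.3 CPM when stretched and 71.3, 76.1 and 79.7 CPM when not. Non-stretched knockdown libraries were above all others, as for Ddit3. Trib3 rose with knockdown by 0.44 (SE 0.0429, adjusted p = 9.75e-10) without and 0.15 (SE 0.0430, adjusted p = 0.00522) with stretch. Stretch of knockdown cells lowered it, at -0.18 (SE 0.0426, adjusted p = 0.00765), and stretch of control cells gave 0.11 (SE 0.0432, adjusted p = 0.114), which did not pass.

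Sesn2 and Ddit4, which both restrain the growth kinase mTORC1, moved in opposite directions with knockdown. Sesn2 (chr4:132492032-132510501, minus strand) encodes a sestrin that also binds leucine. It had 104, 108 and 113 CPM in stretched and 93.0, 102 and 107 CPM in non-stretched knockdown cells, against 67.6, 71.0 and 93.2 and 53.2, 58.5 and 64.6 CPM in stretched and non-stretched control cells. Knockdown and control libraries were separate when the stretch state was the same, and so were stretched and non-stretched control libraries. The rise with knockdown was 0.78 (SE 0.0583, adjusted p = 7e-12) without and 0.55 (SE 0.0579, adjusted p = 7.19e-09) with stretch. Stretch raised Sesn2 in control cells by 0.34 (SE 0.0588, adjusted p = 0.000822), and by 0.27 (adjusted p = 0.000118) without stretched control replicate 5, which held its highest control value. In knockdown cells the stretch difference of 0.11 (SE 0.0571, adjusted p = 0.281) did not pass.

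Ddit4 stood at 40.1, 42.4 and 46.9 CPM in stretched and 44.7, 46.8 and 48.0 CPM in non-stretched knockdown cells, and at 50.5, 54.0 and 63.6 and 51.9, 54.9 and 55.7 CPM in stretched and non-stretched control cells. Knockdown libraries were the lower ones without overlap in each stretch state. It fell with knockdown, at log2 fold changes of -0.23 (SE 0.0444, adjusted p = 7.48e-05) without and -0.36 (SE 0.0447, adjusted p = 1.42e-07) with stretch. Chac1, an enzyme that degrades glutathione, was covered by 19 to 71 counts per library. Its libraries held 0.849, 1.12 and 1.36 and 0.952, 1.20 and 1.51 CPM in stretched and non-stretched knockdown cells, and 0.777, 0.991 and 1.14 and 0.420, 0.882 and 1.04 CPM in stretched and non-stretched control cells. All groups overlapped, and Chac1 passed for knockdown without stretch (0.54 (SE 0.172, adjusted p = 0.00854)) and not with stretch (0.18 (SE 0.171, adjusted p = 0.391)).

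Vldlr, a lipoprotein receptor whose gene is an ATF4 target in mouse tissues under endoplasmic reticulum stress, was called for stretch of control cells alone. It had 70.4, 74.3 and 81.3 and 66.7, 70.2 and 77.2 CPM in stretched and non-stretched knockdown cells, and 71.1, 77.8 and 81.6 and 66.0, 68.5 and 75.5 CPM in stretched and non-stretched control cells. The control groups overlapped, and the rise was 0.16 (SE 0.0427, adjusted p = 0.0272). It did not pass with the authors' factors (adjusted p = 0.326), nor without any of stretched control replicates 1, 2 and 3 and non-stretched control replicates 1, 4 and 5 (adjusted p of 0.0524 to 0.0761).

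The secreted members went in opposite directions with knockdown. Gdf15 (chr8:70629393-70632456, minus strand) encodes a circulating stress factor of the TGF-beta superfamily that acts on the hindbrain. Its levels were 116, 118 and 136 CPM in stretched and 104, 112 and 128 CPM in non-stretched knockdown cells, and 69.3, 74.7 and 78.2 and 52.8, 62.4 and 69.2 CPM in stretched and non-stretched control cells. Every knockdown library lay above every control library. The rise was 0.88 (SE 0.0553, adjusted p = 1.73e-13) without and 0.72 (SE 0.0550, adjusted p = 1.19e-11) with stretch. Stretch of control cells also raised it, by 0.25 (SE 0.0557, adjusted p = 0.00814), and in knockdown cells the stretch difference was 0.09 (SE 0.0541, adjusted p = 0.325).

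Fgf21 (chr7:45613886-45615490, minus strand), a metabolic hormone best known from liver, fell with knockdown. It had 6.92, 7.52 and 8.45 CPM in stretched and 7.13, 8.44 and 8.87 CPM in non-stretched knockdown cells, against 13.0, 15.2 and 16.2 and 11.9, 14.8 and 16.1 CPM in stretched and non-stretched control cells. All knockdown libraries were below all control libraries. The log2 fold change was -0.80 (SE 0.0697, adjusted p = 1.09e-10) without and -0.98 (SE 0.0703, adjusted p = 2.68e-12) with stretch, and its promoter window holds the core shown above, as does that of Slc7a11, which rose. Stretch differences were -0.12 in knockdown and 0.05 in control cells and did not pass.

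Of the 9 tested enzymes of amino acid and one-carbon metabolism, 7 rose and 1 fell with knockdown without stretch, and 3 rose and 1 fell with stretch. Of all genes, 28% were called higher and 29.7% lower without stretch, and 25.1% and 26.9% with stretch, so that the 3 of 9 higher with stretch were not far above the share of all genes. Asns, which makes asparagine and is a classic ATF4 target, was at 418, 429 and 445 CPM in stretched and 443, 451 and 493 CPM in non-stretched knockdown cells, and at 335, 379 and 394 and 352, 361 and 378 CPM in stretched and non-stretched control cells. Knockdown libraries were above control libraries of the same stretch state. The rise was 0.33 (SE 0.0340, adjusted p = 2.47e-09) without and 0.20 (SE 0.0340, adjusted p = 1.64e-05) with stretch. Shmt2, the mitochondrial serine hydroxymethyltransferase, had 332, 344 and 373 and 346, 368 and 385 CPM in stretched and non-stretched knockdown cells and 260.0, 271 and 280.0 and 247, 273 and 282 CPM in stretched and non-stretched control cells. Its groups were separate in the same way, with 0.45 (SE 0.0356, adjusted p = 1.5e-11) without and 0.36 (SE 0.0356, adjusted p = 1.43e-09) with stretch. Cth, which makes cysteine from cystathionine, was at 6.99 to 16.5 CPM over all libraries and rose by 0.74 (SE 0.0944, adjusted p = 1.62e-07) without and 0.42 (SE 0.0950, adjusted p = 0.000528) with stretch.

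The serine synthesis enzyme Phgdh had 486, 501 and 528 CPM in stretched and 513, 523 and 538 CPM in non-stretched knockdown cells, and 477, 481 and 496 and 440.0, 473 and 489 CPM in stretched and non-stretched control cells. Without stretch the groups were separate, and Phgdh was higher in knockdown cells by 0.17 (SE 0.0286, adjusted p = 1.13e-05). With stretch they overlapped, at 0.05 (SE 0.0287, adjusted p = 0.131). Gpt2, which makes alanine in mitochondria, followed the same order, with 129, 134 and 139 and 132, 138 and 143 CPM in stretched and non-stretched knockdown cells and 129.8, 133 and 135 and 121, 128 and 131 CPM in stretched and non-stretched control cells. It rose by 0.12 (SE 0.0256, adjusted p = 0.000259) without stretch, and the difference with stretch was 0.01 (SE 0.0256, adjusted p = 0.764). Psat1, the next enzyme of serine synthesis, and Mthfd2, of the mitochondrial folate pathway, rose with knockdown in non-stretched cells by 0.13 (SE 0.0300, adjusted p = 0.000472) and 0.12 (SE 0.0359, adjusted p = 0.00613), against differences of 0.04 and -0.01 in stretched cells that did not pass.

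Pycr1, the last enzyme of proline synthesis, had 39.1, 42.1 and 44.2 CPM in stretched and 43.3, 45.3 and 49.4 CPM in non-stretched knockdown cells, and 49.4, 51.1 and 53.9 and 46.6, 50.5 and 53.7 CPM in stretched and non-stretched control cells. Knockdown libraries were below control libraries without overlap when stretched, and the groups overlapped when not. Pycr1 fell with knockdown, with log2 fold changes of -0.14 (SE 0.0386, adjusted p = 0.00321) without and -0.30 (SE 0.0388, adjusted p = 2.57e-07) with stretch. It also fell with stretch of knockdown cells, at -0.13 (SE 0.0388, adjusted p = 0.0289). With the authors' factors it did not pass for knockdown without stretch (adjusted p = 0.0518) or for stretch of knockdown cells (adjusted p = 0.0857). Its call for stretch of knockdown cells was also lost without any of stretched knockdown replicates 1, 4 and 5 and non-stretched knockdown replicate 2 (adjusted p of 0.0525 to 0.0907). Aldh18a1, the first enzyme of proline synthesis, fell with stretch of knockdown cells, at -0.11 (SE 0.0299, adjusted p = 0.0167), a call lost without stretched knockdown replicate 4 (adjusted p = 0.0554). It did not differ past the threshold between knockdown and control cells, at 0.06 without and -0.00 with stretch.

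Of the 4 transporters, Slc7a11 gave the largest fold change of any member. It encodes xCT, which brings in cystine in exchange for glutamate, and lies at chr3:49892526-50443614 on the minus strand. Its levels were 5.37, 5.95 and 6.72 CPM in stretched and 5.15, 6.50 and 7.36 CPM in non-stretched knockdown cells, and 2.45, 2.63 and 3.52 and 2.19, 2.67 and 3.58 CPM in stretched and non-stretched control cells. No control library reached a knockdown library. The rise was 1.22 (SE 0.108, adjusted p = 1.84e-10) without and 1.07 (SE 0.109, adjusted p = 3.35e-09) with stretch, or 132% and 110%. The partner chain Slc3a2, which carries Slc7a11 and Slc7a5 to the cell surface, rose by 0.10 (SE 0.0277, adjusted p = 0.00309) without stretch and stood at 0.05 (SE 0.0277, adjusted p = 0.142) with stretch. Slc7a5, a carrier of large neutral amino acids, and Slc7a3, a carrier of cationic ones, passed in no comparison.

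The 12 tRNA synthetase members went in both directions with knockdown. Without stretch 7 rose and 2 fell with knockdown, and with stretch 4 rose and 2 fell. The shares of all genes were 28% higher and 29.7% lower without stretch and 25.1% and 26.9% with stretch, so that the 4 of 12 higher with stretch were not far above the share of all genes. Eprs, which charges both glutamyl and prolyl tRNA, had 460.1, 466 and 519 CPM in stretched and 479, 518 and 536 CPM in non-stretched knockdown cells, and 323, 362 and 384 and 340.2, 346 and 377 CPM in stretched and non-stretched control cells. Its rise was the largest of the 12, at 0.53 (SE 0.0426, adjusted p = 2.21e-11) without and 0.42 (SE 0.0426, adjusted p = 3.2e-09) with stretch, with no overlap between knockdown and control libraries. Wars, the tryptophanyl enzyme, stood at 89.3, 92.6 and 97.1 and 94.3, 97.2 and 105 CPM in stretched and non-stretched knockdown cells and at 70.6, 75.4 and 77.9 and 75.6, 78.6 and 80.2 CPM in stretched and non-stretched control cells. These groups were separate as well, and Wars rose by 0.33 (SE 0.0293, adjusted p = 1.78e-10) without and 0.31 (SE 0.0294, adjusted p = 8.23e-10) with stretch.

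Mars1, the methionyl enzyme, was at 124, 130.2 and 134 CPM in stretched and 135, 139 and 145 CPM in non-stretched knockdown cells, and at 108, 111 and 115 and 112, 117 and 119 CPM in stretched and non-stretched control cells. It rose with knockdown by 0.27 (SE 0.0260, adjusted p = 8.96e-10) without and 0.21 (SE 0.0261, adjusted p = 1.05e-07) with stretch and fell with stretch of knockdown cells, at -0.12 (SE 0.0260, adjusted p = 0.00496), each without overlap. Cars, the cysteinyl enzyme, had 173, 179 and 188 and 173, 179 and 186 CPM in stretched and non-stretched knockdown cells and 219, 222 and 231 and 206, 218 and 223 CPM in stretched and non-stretched control cells. Here the knockdown libraries were the lower ones, with log2 fold changes of -0.26 (SE 0.0259, adjusted p = 1.35e-09) without and -0.31 (SE 0.0259, adjusted p = 6.07e-11) with stretch.

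The seryl enzyme Sars rose with knockdown by 0.12 (SE 0.0352, adjusted p = 0.00500) without and 0.12 (SE 0.0352, adjusted p = 0.00507) with stretch. Tars, Iars and Lars, for threonine, isoleucine and leucine, rose with knockdown in non-stretched cells by 0.21 (SE 0.0464, adjusted p = 0.000347), 0.14 (SE 0.0339, adjusted p = 0.00114) and 0.12 (SE 0.0320, adjusted p = 0.00277). In stretched cells their differences of 0.08, 0.06 and 0.03 did not pass. Gars, the glycyl enzyme, fell with knockdown in stretched cells, at -0.14 (SE 0.0257, adjusted p = 4.62e-05). Its fall in non-stretched cells, -0.07 (SE 0.0257, adjusted p = 0.0225), did not pass with DESeq2 size factors (adjusted p = 0.0524), the authors' factors (0.0609) or no filter (a log2 fold change of -0.03, adjusted p = 0.362), nor without stretched knockdown replicate 1 or non-stretched knockdown replicates 3, 4 or 5 (0.0534 to 0.184). Without stretched knockdown replicate 1 its log2 fold change was -0.04. Aars, Nars and Yars, for alanine, asparagine and tyrosine, passed in no comparison. Exons of Aars share 1326 bases with Exosc6 on the same strand. Under 31 other settings Aars passed as higher for knockdown without stretch in 11, with adjusted p of 0.00430 to 0.154 over the 31. Nars passed as lower for knockdown with stretch in 4, with adjusted p of 0.000275 to 0.160 over the 31.

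The difference between the stretch responses of knockdown and control cells was tested as an interaction. No member passed, and of all genes 0.0208% passed as higher (Fosb, Dkk3 and Pdzd2) and 0% as lower. At an unadjusted p under 0.05 there were 14 members and 1355 of 14411 genes. By sign, 37 of 43 members (86.0%) responded less positively to stretch in knockdown than in control cells, against 47.1% of all genes, and the median interaction was -0.09 over the members and 0.01 over all genes. The number below 0 was 35 to 38 when any one library was left out and 37 or 38 under 6 other settings. Members are not independent of each other, and this count carries no test.

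Trib3 had the smallest adjusted p of the members, at an interaction of -0.29 (SE 0.0607, adjusted p = 0.0619), followed by Ddit3 at -0.33 (SE 0.0798, adjusted p = 0.102). Eif2ak3 was among the 6 members above 0, at 0.16 (SE 0.0478, adjusted p = 0.206). For Atf4 the interaction was -0.12 (SE 0.0354, adjusted p = 0.209), for Gpt2 -0.11 (SE 0.0362, adjusted p = 0.298), for Pycr1 -0.16 (SE 0.0547, adjusted p = 0.326) and for Phgdh -0.12 (SE 0.0405, adjusted p = 0.326). DESeq2 called 3 members, Trib3 (adjusted p = 0.00256), Ddit3 (0.0139) and Atf4 (0.0167), among 126 genes. Without stretched control replicate 5, edgeR called 5, namely Trib3 (adjusted p = 0.0264), Ddit3 (0.0283), Nupr1 (0.0313), Asns (0.0392) and Atf4 (0.0409), among 109 genes. Trib3 was also called without stretched control replicate 4 and without non-stretched knockdown replicate 6.

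**Figure D3:**
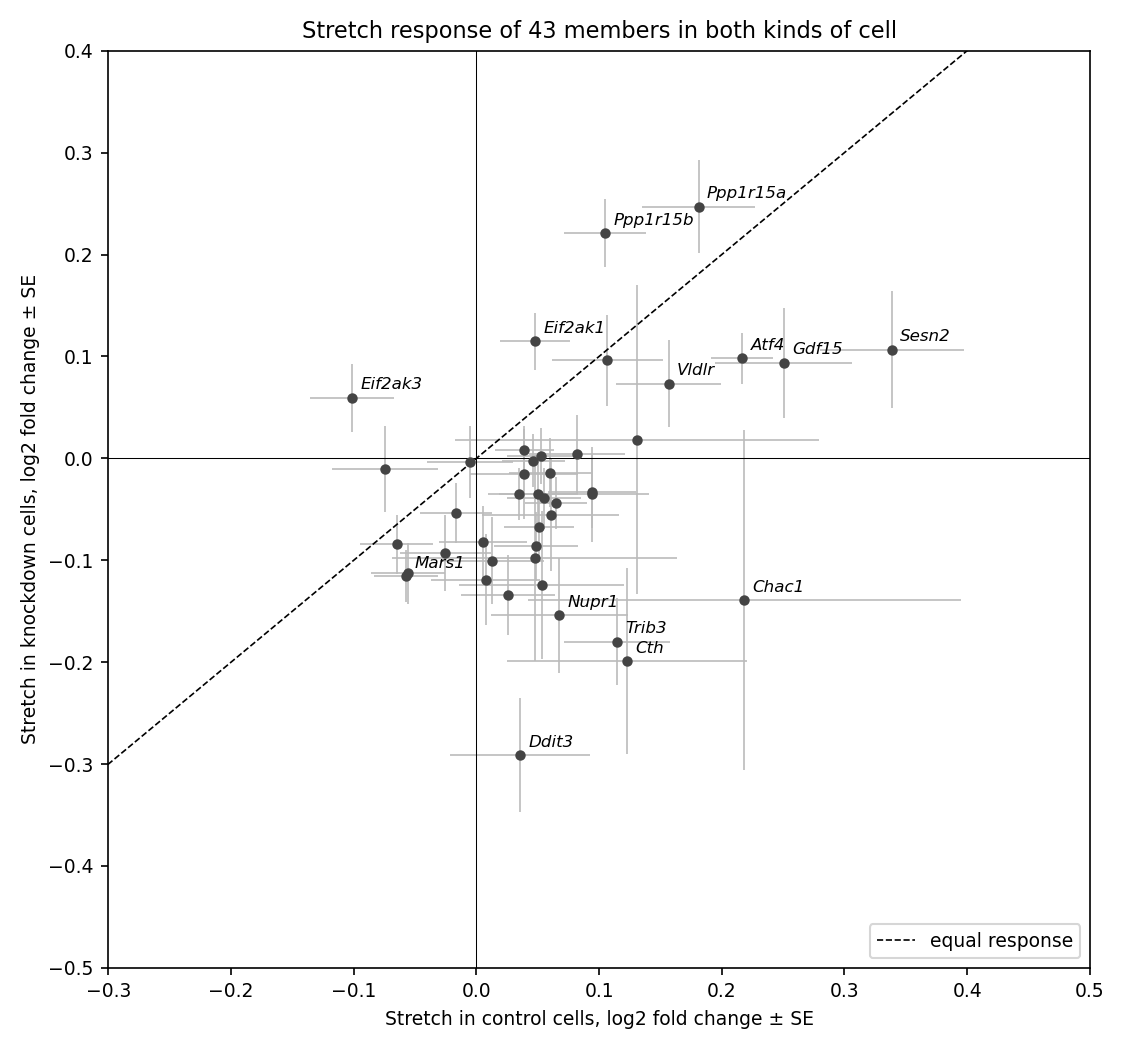
Log2 fold change ± SE of each of the 43 tested members with stretch in control cells (x axis) and in knockdown cells (y axis), with the dashed line marking equal responses. The 37 members with a negative interaction lie below the line, among them Ddit3 and Trib3, and Ppp1r15a, Ppp1r15b, Eif2ak1 and Eif2ak3 are among the 6 above it.

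Related genes outside the 44 gave a scale for these differences. Beside them, 28% of all genes tested were called higher and 29.7% lower with knockdown without stretch, and 25.1% and 26.9% with stretch. Of 19 other ATF4-linked genes, 9 rose and 4 fell with knockdown without stretch. With stretch 5 rose and 6 fell, near the shares of all genes. Atf3, a stress-induced partner of CHOP, rose by 1.26 (SE 0.0766, adjusted p = 2.73e-13) without and 1.23 (SE 0.0750, adjusted p = 3.75e-13) with stretch. With stretch, Atf3 rose by 0.57 (SE 0.0731, adjusted p = 1.24e-05) in knockdown and 0.60 (SE 0.0774, adjusted p = 3.83e-05) in control cells. Of 8 other cytosolic synthetases, 4 rose without and 3 with stretch and none fell, with the smallest adjusted p for Hars (0.25 (SE 0.0320, adjusted p = 1.73e-07) and 0.23 (SE 0.0320, adjusted p = 5.79e-07)). Of 17 mitochondrial synthetases, 7 rose and 5 fell without and 7 rose and 4 fell with stretch, and the falls were near the shares of all genes. Among 11 genes of eIF2, its exchange factor eIF2B and GCN2 partners, 7 rose without stretch, and 5 rose and 1 fell with stretch. Impact, which restrains GCN2, rose with stretch by 0.20 (SE 0.0305, adjusted p = 6.34e-05) in knockdown and 0.31 (SE 0.0310, adjusted p = 8.41e-07) in control cells.

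The ATF6 and XBP1 branch of the unfolded protein response, which runs beside PERK, showed the highest medians of the lists in the knockdown comparisons. Of its 17 genes 16 rose with knockdown without stretch and 15 with stretch, and none fell. Of all genes, 28% and 25.1% were called higher in these comparisons and 29.7% and 26.9% lower. The median log2 fold change was 0.56 without and 0.49 with stretch. Hspa5, the main chaperone of the endoplasmic reticulum, rose by 0.93 (SE 0.0380, adjusted p = 1.12e-17) and 0.83 (SE 0.0379, adjusted p = 1.89e-16), and Xbp1, the factor spliced by the sensor IRE1, by 0.84 (SE 0.0326, adjusted p = 4.68e-18) and 0.81 (SE 0.0327, adjusted p = 1.71e-17). With stretch of knockdown cells 4 of the 17 fell, led by Sdf2l1 (-0.25 (SE 0.0367, adjusted p = 4.67e-05)), where 3.61% of all genes were called lower. Of its 14 genes with a promoter window 0 held the TGATGNAA core.

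**Figure D4:**
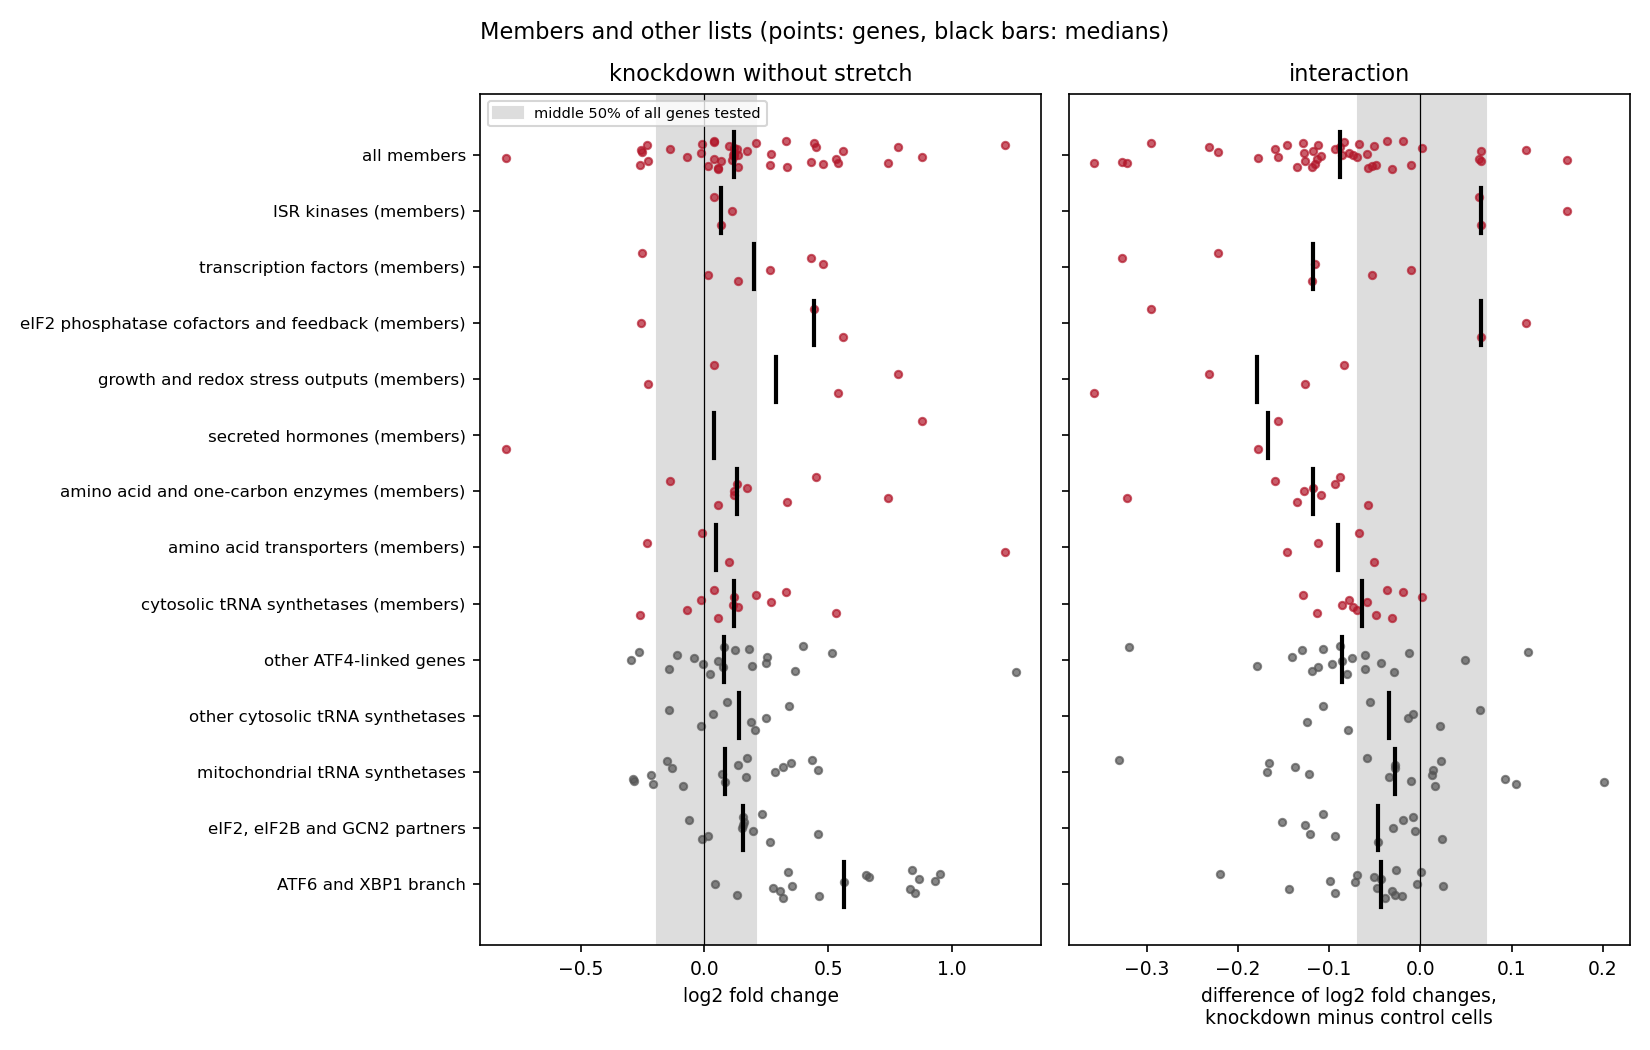
Log2 fold change for knockdown against control without stretch (left panel, x axis) and the interaction on the log2 scale (right panel, x axis) for each gene (points) of the member groups (red) and of related lists (grey), with black bars for list medians and a grey band for the middle 50% of all genes tested. The ATF6 and XBP1 branch has a median of 0.56 in the left panel, against 0.12 for all members, whose median in the right panel is -0.09.

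Members with the TGATGNAA core were set beside those without it. Of the 13 tested members with the core, 6 rose and 4 fell with knockdown without stretch, with a median log2 fold change of 0.05. Of 22 tested members whose window lacked it, 18 rose and 1 fell, with a median of 0.13. With stretch, 3 rose and 4 fell with the core, and 12 rose and 1 fell without it. Of all genes, 28% were called higher and 29.7% lower without stretch, and 25.1% and 26.9% with stretch. The members with the core were near those shares except for more higher calls without stretch. The members whose window lacked it had more higher and fewer lower calls than those shares in both stretch states. For the interaction the medians were -0.14 with the core and -0.09 without it.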

How the data were processed

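Poly(A) RNA of 24 HL-1 libraries, 6 in each of 4 groups assigned by their titles, was measured by sequencing. A table of estimated counts per gene was deposited, in which 36.6% of values were whole within 1e-09, and a second table of a normalized signal for the same genes, used here only for an alternative scaling. Per the submitters' processing notes, the tools were kallisto 0.44.0, R 3.4.4 and DESeq2 1.18.1 on the build GRCm38.p6. How transcripts were summed, and whether counting used strand, is not given in the sources used here. Reads that near-identical genes share could thus be split in unstated ways.

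In R 4.3.3, edgeR 4.0.16 was applied to the deposited counts after rounding, with TMM factors. Genes were kept by filterByExpr (minimum count 10, minimum total 15), and all libraries entered 1 quasi-likelihood fit (robust) that had a coefficient for each group and 20 residual degrees of freedom. Benjamini-Hochberg adjustment covered the 14411 genes tested, at a threshold of 0.05. The comparisons were knockdown against control in each stretch state, stretched against non-stretched in each kind of cell, and their interaction, the stretch response of knockdown cells minus that of control cells. The standard error (SE) is the log2 fold change divided by the square root of the F statistic. Depth was 23.6 to 54.8 M estimated counts per library. The chi-square of a pair of replicates, averaged over the genes tested, was 2.80 or more in all 60 pairs. A few genes with high counts can raise such a mean, so it does not decide whether replicates differ beyond sampling noise. The code was tested on simulated counts. Alternatives were DESeq2 1.42.0, other scalings, no filter, only the groups compared, blocks for the replicate number and the letter in the library codes, and leaving out each library.

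The members, gene lists and alternatives were chosen with earlier results of these data known. The text names every member that passed in a comparison. It gives values by library for 14 key members, for those with the 6 smallest adjusted p in each comparison, and for Slc7a11, which was added after its values were seen. Gene positions are from GENCODE vM21 on GRCm38, and promoter windows from RefSeq on GRCm38.p6.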

Additional observations from a re-analysis of the deposited data

Results flagged for a closer look

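In 21 of the 172 combinations of a tested member and a group, 1 library lay far from the other 5 by the 95% limit of Dixon's ratio, where chance alone gives about 1 in 20. Stretched control replicate 5 accounted for 8 of them. There Sesn2 stood at 93.2 CPM against 67.6 to 75.0 CPM in the other libraries of its group, and Slc7a5 at 733 against 616 to 635 CPM. For the remaining 6 of the 8, this library was the lowest of its group. Nupr1 was at 80.0 CPM against 99.1 to 109 CPM, Psat1 at 484 against 540 to 560 CPM and Sars at 266 against 305 to 324 CPM. Nars was at 316 CPM against 363 to 388 CPM, Tars at 406 against 479 to 521 CPM and Iars at 304 against 333 to 349 CPM. This is the library of low depth and low mitochondrial share, and the part of either in these values was not tested.

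Non-stretched knockdown replicate 4 accounted for 5. Asns stood there at 493 CPM against 443 to 459 CPM, Psat1 at 602 against 555 to 571 CPM, Mthfd2 at 385 against 336 to 344 CPM and Nars at 373 against 332 to 347 CPM, each the highest of its group. Eif2ak4 was the lowest, at 30.2 CPM against 33.9 to 35.4 CPM. In non-stretched knockdown replicate 2, Trib3 was at 112 CPM against 99.0 to 103 CPM and Yars at 223 against 211 to 215 CPM. Stretched knockdown replicate 3 held Atf5 at 551 CPM against 488 to 510.0 CPM and Gars at 540 against 505 to 518 CPM. Cars was at 231 CPM in stretched control replicate 1 against 219 to 223 CPM. In non-stretched control libraries, Ddit4 was at 51.9 CPM in replicate 1 against 54.6 to 55.7 CPM, Chac1 at 0.420 CPM in replicate 4 against 0.821 to 1.04 CPM, and Nars at 332 CPM in replicate 5 against 349 to 358 CPM.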

How the results depend on the processing

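No fold change of a member called in a comparison changed sign under any alternative run. Counts of members called stayed within 1.5 times under DESeq2, both other scalings, no filter, only the groups compared and both blocks, except for the interaction. There, 0 members were called by edgeR, against 3 by DESeq2, 2 with the replicate block and 2 with the code letter block, in both cases Ddit3 and Trib3. Genes called for the interaction numbered 3, against 126 with DESeq2, 1 with the authors' factors, 9 with the replicate block and 45 with the code letter block. For stretch in control cells 857 genes were called, against 566 with the authors' factors and 377 with only the groups compared. When each library was left out, members called ranged from 3 to 11 for stretch in control cells, 7 to 14 for stretch in knockdown cells, 32 to 36 for knockdown without stretch, 23 to 25 for knockdown with stretch and 0 to 5 for the interaction. Genes called ranged from 568 to 2023, 856 to 1930, 7974 to 8888, 7102 to 8017 and 0 to 109 in the same order. The highest count of genes came without stretched control replicate 5 in each of the 5 comparisons. For libraries with the same replicate number, 36 correlations between their deviations ran from -0.0638 to 0.147, with 3 over 0.1. Libraries with different numbers were not compared in this way, so these values cannot decide whether the numbers pair the libraries. With the replicate block, members called were 5, 11, 34, 27 and 2 in that order. Of 72 called results for single members, DESeq2 and both blocks kept all, the authors' factors 67, and DESeq2 size factors, no filter and only the groups compared 71 each. The causes of these changes were not tested. Chac1 rests on 19 to 71 counts per library, and Cbs was below the filter. Of the 6 members called in no comparison, Aars, Nars, Slc7a3, Slc7a5 and Yars were called in 1 or more under some alternatives, and Atf5 under none.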
